A study of Homo sapiens with 6 samples.

Results

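The surface and enzyme markers that have been used to pick out colorectal cancer stem cells were examined in the human colorectal cancer line SW480 and in M5, a population derived from it. The set has 10 genes: PROM1, CD24, ALCAM, ALDH1A1, ALDH1A3, BMI1, OLFM4, DCLK1, MSI1 and ABCG2. A log2 difference is M5 minus SW480 throughout. Members were the probe sets whose only gene symbol in the platform annotation is one of these, which gave 20 of 54613 probe sets and covered 9 of the 10 genes, among 19775 genes with a probe set of their own. Both populations are established cells kept in RPMI medium with fetal bovine serum and penicillin/streptomycin. SW480 is the unselected parent, and M5 was recovered from SW480 cells by selection in an animal for a raised capacity to colonise the liver. Neither carries an added allele or agent per the labels, and the sources used here do not name the host, the site of injection or the number of founding clones of M5. Total RNA of 3 samples per population, called biological replicates by the labels, was hybridised to Affymetrix U133 Plus 2.0 arrays, which report 1 signal per probe set.

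Cancer stem cells are operationally the tumour cells that can regrow a tumour, and they are usually sorted with surface antigens or with enzyme activity. PROM1 (CD133), CD24 and ALCAM (CD166) are cell surface proteins used for such sorts, and the aldehyde dehydrogenases ALDH1A1 and ALDH1A3, which make retinoic acid, lie behind the ALDEFLUOR activity assay. OLFM4 is a secreted glycoprotein of intestinal crypt base cells, DCLK1 a kinase of tuft cells, MSI1 an RNA-binding protein that represses the Notch inhibitor NUMB, ABCG2 the efflux pump behind the dye-excluding side population, and BMI1 a Polycomb repressor of the CDKN2A locus. Array signals are averages over all cells of a culture, so fewer marker-positive cells and less RNA per positive cell cannot be told apart.

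The 250 bases before the most upstream annotated start are shown for 3 members. These are the members whose brightest probe set had an unadjusted limma p under 0.05 over all 6 arrays. The sequences are from RefSeq, build GRCh38.p14, written 5′ to 3′ on the gene's strand. Capitals mark matches to the GC box GGGCGG or to the E-box CACCTG, which ZEB and SNAI repressors bind, on either strand, where neighbouring matches may overlap. The windows are chr6:106975628-106975877 (minus strand) for CD24, chr4:16084024-16084273 (minus strand) for PROM1 and chr15:100879581-100879830 (plus strand) for ALDH1A3.
CD24: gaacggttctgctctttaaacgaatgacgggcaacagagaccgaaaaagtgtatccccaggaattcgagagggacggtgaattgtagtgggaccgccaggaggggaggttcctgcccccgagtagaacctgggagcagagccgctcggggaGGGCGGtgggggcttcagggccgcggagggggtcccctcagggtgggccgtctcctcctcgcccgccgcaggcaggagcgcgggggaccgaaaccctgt
PROM1: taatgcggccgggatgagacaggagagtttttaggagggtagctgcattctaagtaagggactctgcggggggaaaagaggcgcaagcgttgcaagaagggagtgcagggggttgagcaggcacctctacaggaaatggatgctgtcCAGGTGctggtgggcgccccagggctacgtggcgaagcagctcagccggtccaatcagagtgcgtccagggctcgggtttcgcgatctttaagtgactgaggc
ALDH1A3: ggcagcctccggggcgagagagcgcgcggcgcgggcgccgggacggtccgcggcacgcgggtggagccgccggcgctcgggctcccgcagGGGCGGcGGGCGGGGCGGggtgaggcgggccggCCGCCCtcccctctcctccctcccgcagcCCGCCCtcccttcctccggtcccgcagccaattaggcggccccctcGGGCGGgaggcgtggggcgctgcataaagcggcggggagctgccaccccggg
The CD24 window holds 1 GC box, 94 to 99 bases before the start, and no CACCTG. In the PROM1 window there is 1 E-box match, 98 to 103 bases before the start, and no GC box. ALDH1A3 has 6 GC box matches, some overlapping, the nearest 47 to 52 bases before the start. Over all 35116 windows of the same length, 42.6% hold a GC box and 17.5% a CACCTG, 11.2% the TCF/LEF core CTTTGA and 10.7% the TATA box TATAAA. Of the 8 members with a promoter in the table, 3 hold a GC box, 2 a CACCTG, 1 (ALDH1A1) a CTTTGA and 0 a TATAAA. CD24 and PROM1, both with lower mean signals in M5, have no searched motif in common. These matches describe letters only.

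The arrays differed in brightness, with 2% trimmed mean signals from 20.9 to 86.4, and were put on one scale by quantile normalisation. SW480 replicate 1 and M5 replicate 1 were the dimmest and are called the dimmer arrays here. M5 replicates 2 and 3 correlated at r = 0.995 on bright probe sets, against 0.897 to 0.958 for the other pairs. Over all tested probe sets this pair did not stand apart, at r = 0.943 against 0.884 to 0.944. On the basis of the bright probe sets their average enters the means and SDs as a single sample (n = 2 for M5). The limma fits count these 2 arrays as separate samples, except where averaging is stated. On bright probe sets the dimmer arrays correlated with each other, across the populations, at 0.955. SW480 replicate 1 correlated at 0.910 with each other SW480 array, and M5 replicate 1 at 0.935 and 0.933 with M5 replicates 2 and 3. Over all tested probe sets the dimmer arrays were at 0.895, against 0.890 to 0.899 within their populations. The cause was not tested. An 18S ribosomal RNA control was high on SW480 replicates 1 and 2 and M5 replicate 1 (2823.9 to 4163.4) and low on the other arrays (96.3 to 234.1). Nothing in the labels says that replicates came from separate cultures, so p-values measure only the spread between these samples. Of 12 markers of colorectal epithelium 11 lay above the low-signal limit, and EPCAM signal was 2176 to 2559 in SW480 and 2239.5 to 2923 in M5. CDX2, an intestinal transcription factor, was the marker under the limit.

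No member probe set passed the threshold between M5 and SW480. A probe set was tested when its mean over all 6 arrays lay above that of the dimmest 40%, which left 14 of the 20, from 6 genes. In limma, with Benjamini-Hochberg adjustment over all 32768 tested probe sets and a threshold of 0.05, 0 of the 14 were higher in M5 and 0 were lower. In all, 0.0397% of the tested probe sets were called higher and 0.0336% lower, so a count of 0 among 14 is no result about these genes. At an unadjusted p under 0.05, limma gave 5 of the 14 lower, namely 4 of CD24 and the 1 of PROM1, and 1 higher, of ALDH1A3. Of all tested probe sets, 5.44% were lower and 4.82% higher at this level. With M5 replicates 2 and 3 averaged, the unadjusted limma p was 0.0937 for PROM1 and 0.116 for ALDH1A3. The same 4 of CD24 stayed under 0.05 in that fit. The median log2 difference of the 14 was -0.68, against -0.01 over all tested probe sets. As 6 of the 14 measure the same gene, CD24, this median leans on that gene, whose own median was -1.31.

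**Figure D1:**
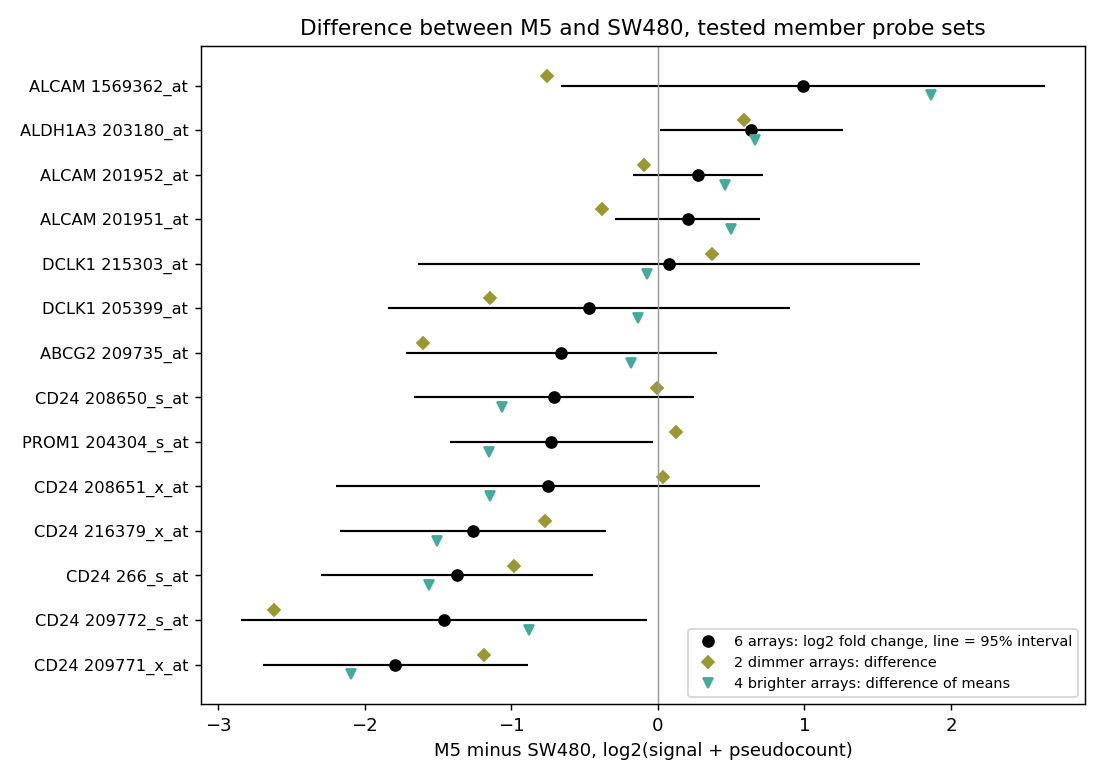
Log2 difference of M5 from SW480 (horizontal axis, log2 of signal plus pseudocount) for the 14 tested member probe sets. Black points are limma estimates over 6 arrays with 95% intervals, diamonds the difference between the dimmer arrays, and triangles the difference of means on the 4 brighter arrays. All 6 CD24 estimates lie below 0, from -1.79 to -0.71.

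CD24, a small heavily glycosylated protein anchored at the cell surface, had the most extreme differences of the set. Its probe set 209771_x_at gave normalised signals of 98.5, 360.0 and 143.7 on SW480 replicates 1, 2 and 3 and of 42.4, 57.3 and 47.3 on M5 replicates 1, 2 and 3. Every M5 array thus lay below every SW480 array, and SW480 replicate 2 stood highest. Mean signal was 201 ± 140 in SW480 (SD, n = 3) and 47.3 ± 7.0 in M5 (SD, n = 2). The log2 difference was -1.79 (SE 0.41, 95% interval -2.70 to -0.88), with an unadjusted p of 0.00114 and 0.243 after adjustment in limma. It did not pass over all probe sets tested.

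The brightest CD24 probe set, 216379_x_at, gave 110.2, 400.5 and 141.8 on the SW480 arrays and 64.1, 79.0 and 86.9 on the M5 arrays, in replicate order. Here too the groups did not overlap, and the log2 difference was -1.26 (SE 0.41, limma adjusted p = 0.377). For 266_s_at the signals were 36.6, 102.6 and 44.6 in SW480 and 17.7, 26.9 and 17.7 in M5, with a log2 difference of -1.37 (SE 0.42, limma adjusted p = 0.347). The groups also stood apart for 209772_s_at, at 17.6, 28.9 and 15.1 in SW480 and 1.43, 13.2 and 8.58 in M5. That probe set had a log2 difference of -1.46 (SE 0.63, limma adjusted p = 0.467), and its signal on M5 replicate 1 was under the pseudocount of 1.7, so its fold is not firm.

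Overlap was seen for the remaining pair of CD24 probe sets. Probe set 208651_x_at gave 11.4, 80.0 and 62.1 in SW480 and 11.7, 23.1 and 41.4 in M5 (log2 difference -0.75, SE 0.66, limma adjusted p = 0.743). Signals of 208650_s_at were 22.5, 72.7 and 31.8 in SW480 and 22.4, 21.8 and 22.7 in M5 (log2 difference -0.71, SE 0.43, limma adjusted p = 0.613). For 208650_s_at SW480 replicate 1 lay at the level of the M5 arrays, and for 208651_x_at it lay below all of them, next to M5 replicate 1.

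M5 thus lay below SW480 on every array for 4 of the 6 CD24 probe sets, where 7.89% of all tested probe sets had this order. The reverse order, M5 wholly above, held for 0 of the 14 tested member probe sets and for 7.23% of all. The 6 share 1 target gene and the same RNA, so they are not separate observations. Across the 6 arrays they correlated with each other at r = 0.58 to 0.99 (median 0.78 over 15 pairs), values given as a description. SW480 replicate 2 was the highest array for all 6, at 1.29 to 2.82 times the next SW480 array. Dropping the highest SW480 array cannot make groups overlap, so the order of the 4 is no check on that replicate. Without SW480 replicate 2 the log2 differences moved to -1.27 for 209771_x_at, -0.71 for 216379_x_at and -0.92 for 266_s_at. They moved to -0.24 for 208650_s_at and -0.25 for 208651_x_at. Without M5 replicate 1, 209772_s_at moved to -0.82 and 208651_x_at to -0.32. Leaving out SW480 replicate 1 moved values away from 0, to -1.60 for 208651_x_at and -1.08 for 208650_s_at. The former was also at -0.42 without SW480 replicate 3 and -1.16 without M5 replicate 3. All 6 carry the array maker's mark for probes shared between transcripts or sequences (_s_at or _x_at), and the genome holds several CD24 pseudogenes. Signal from such copies cannot be told apart from CD24.

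**Figure D2:**
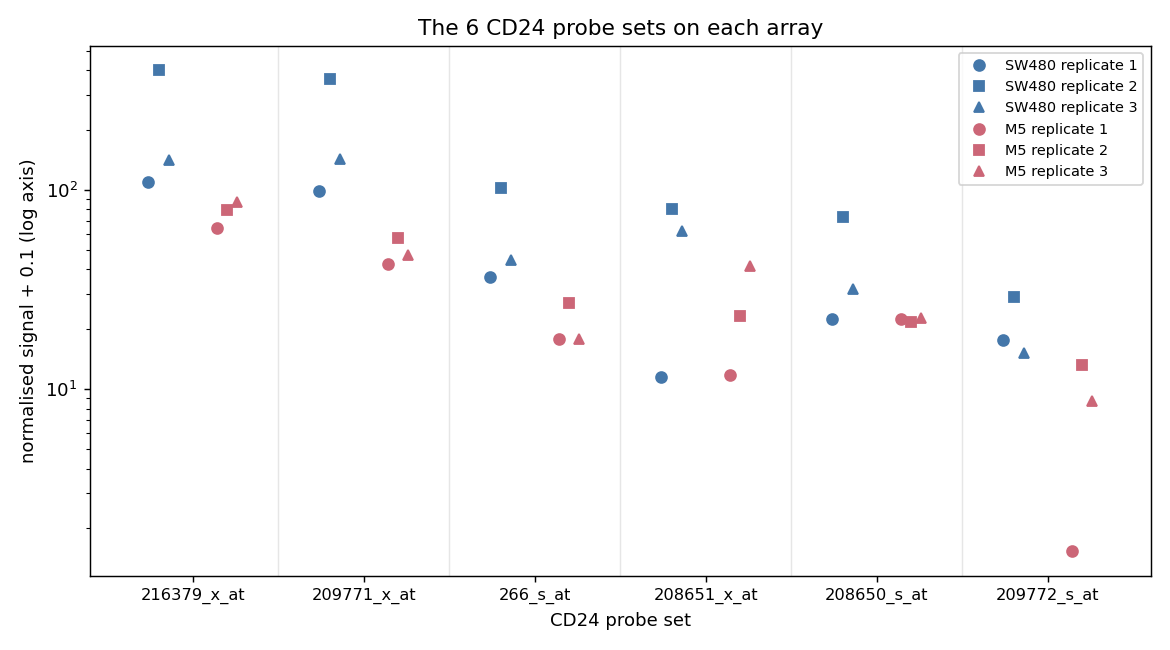
Normalised signal (vertical log axis, with 0.1 added) of the 6 CD24 probe sets on each SW480 (blue) and M5 (red) array. SW480 replicate 2 is the highest array for all 6 probe sets, and M5 lies wholly below SW480 for 4 of them. Heights of different probe sets are not comparable.

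The size of the CD24 difference varied with the arrays. Between the dimmer arrays the 6 probe sets differed by -2.62 to 0.03 on the log2 scale, 5 of them below 0. The -2.62 was that of 209772_s_at, whose signal on M5 replicate 1 was under the pseudocount. The next lowest on the dimmer arrays was -1.18, of 209771_x_at. On the 4 brighter arrays the 6 probe sets differed by -2.09 to -0.88. Within the arrays of high 18S control signal all 6 were below 0, as they were within those of low signal. Without SW480 replicate 1, 209771_x_at passed in limma (log2 difference -2.21, adjusted p = 0.0458), where 0.168% of all probe sets were called lower. Without both dimmer arrays it had an adjusted p of 0.0137, in a fit of 4 arrays that called 4.21% lower, and with M5 replicates 2 and 3 also averaged it had 0.0539, where 0.906% were called lower. With array weights 3 CD24 probe sets passed, 209771_x_at, 216379_x_at and 266_s_at. Their limma adjusted p were 0.00869, 0.0384 and 0.0415, where 3.26% of all probe sets were called lower. The weighted fit counts M5 replicates 2 and 3 as separate samples. With that pair averaged, all other arrays kept and no weights, the limma adjusted p of the 3 were 0.68, 0.873 and 0.849.

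PROM1, the pentaspan membrane protein of the CD133 epitope, is read by 1 probe set. Its signals were 112, 271 and 205 on SW480 replicates 1, 2 and 3 and 122, 115 and 96.1 on M5 replicates 1, 2 and 3. SW480 replicate 1 lay within the range of M5, so the groups overlapped, while SW480 replicates 2 and 3 lay above all other arrays. The mean was 196 ± 79.9 in SW480 (SD, n = 3) and 114 ± 11.9 in M5 (SD, n = 2). The log2 difference was -0.73 (SE 0.31, 95% interval -1.42 to -0.03, limma adjusted p = 0.467). Between the dimmer arrays the difference was 0.13, and on the 4 brighter arrays it was -1.15.

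PROM1 therefore had opposite signs on these sets of arrays, and within SW480 the dimmer array had the lowest signal. The part of array brightness in the difference was not tested. Without the dimmer arrays the log2 difference was -1.17, with a limma adjusted p of 0.0146, or 0.135 with M5 replicates 2 and 3 averaged as well. Array weights gave -0.97 and an adjusted p of 0.0328 in limma. With M5 replicates 2 and 3 averaged, all other arrays kept and no weights, the values were -0.69 and 0.897. Leaving out SW480 replicate 2 gave -0.45 and leaving out SW480 replicate 1 gave -1.09, with limma adjusted p of 0.796 and 0.105.

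ALCAM, an adhesion molecule of the immunoglobulin superfamily, did not follow CD24 and PROM1 in sign. Its brightest probe set, 201952_at, gave 666, 430.4 and 631 in SW480 and 624, 756 and 678 in M5, in replicate order. The groups overlapped, with SW480 replicate 2 lowest. The mean was 576 ± 127 in SW480 (SD, n = 3) and 670.5 ± 66.0 in M5 (SD, n = 2), a log2 difference of 0.27 (SE 0.20, 95% interval -0.17 to 0.72, limma adjusted p = 0.685). A second probe set, 201951_at, gave 312, 215 and 239.6 in SW480 and 239.8, 314 and 328 in M5, a log2 difference of 0.20 (SE 0.22, limma adjusted p = 0.801). With single arrays left out, 201951_at ran from 0.09 (without SW480 replicate 2) to 0.36 (without SW480 replicate 1), with 0.12 without M5 replicate 3 and 0.35 without M5 replicate 1. Without SW480 replicate 2 the value of 201952_at was 0.08. In the main fit the 95% intervals of these probe sets leave out a doubling or a halving, a log2 change of 1 either way. Standard errors of 201952_at and 201951_at were both 0.45 with arrays centred on the median, and 0.90 and 0.89 with no scaling. That exclusion therefore depends on the quantile normalisation. The third, 1569362_at, ran from 1.02 to 27.2 and had a log2 difference of 0.99 with a wide interval of -0.66 to 2.64 (limma adjusted p = 0.694). It gave 25.4, 13.3 and 1.02 in SW480, so a single low array carries much of that value: without SW480 replicate 3 it was 0.03, and without SW480 replicate 1 it was 1.73. For all 3 probe sets the difference was below 0 on the dimmer arrays (-0.75 to -0.10) and above 0 on the brighter ones (0.46 to 1.87).

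ALDH1A3, an enzyme that oxidises retinaldehyde to retinoic acid, was the member with the higher mean in M5 at an unadjusted p under 0.05. Probe set 203180_at gave 129, 103 and 213.3 in SW480 and 194, 262 and 212.7 in M5. SW480 replicate 3 reached the level of M5, so the groups overlapped. The mean was 148 ± 57.6 in SW480 (SD, n = 3) and 216 ± 30.7 in M5 (SD, n = 2). The log2 difference was 0.64 (SE 0.28, 95% interval 0.01 to 1.26), with an unadjusted p of 0.0462 and 0.481 after adjustment in limma. It differed by 0.59 on the dimmer arrays and 0.66 on the brighter ones. Within the arrays of high 18S control signal the difference was 0.74, and within those of low signal 0.15. With the 18S control groups as a block the estimate was 0.44. With single arrays left out the estimate ran from 0.42 (without SW480 replicate 2) to 0.93 (without SW480 replicate 3). The other ALDH1A3 probe set, 1558649_at, stayed at 0.667 to 6.95 and was not tested.

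ABCG2, a pump that exports drugs and dyes, had signals of 22.2, 16.9 and 25.4 in SW480 and 6.17, 17.97 and 18.1 in M5. M5 replicate 1 stood lowest and the other arrays overlapped. The mean was 21.5 ± 4.34 in SW480 (SD, n = 3) and 12.1 ± 8.39 in M5 (SD, n = 2), and the log2 difference was -0.66 (SE 0.48, 95% interval -1.72 to 0.40, limma adjusted p = 0.682). Without M5 replicate 1 it was -0.22.

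DCLK1 has 4 probe sets, of which 2 were tested. Probe set 205399_at gave 13.5, 7.50 and 4.78 in SW480 and 5.17, 7.27 and 3.83 in M5, a log2 difference of -0.47 (SE 0.62, limma adjusted p = 0.84). It was -0.15 without SW480 replicate 1, -0.73 without SW480 replicate 3 and -0.30 without M5 replicate 3. Probe set 215303_at ranged from 1.67 to 15.7, with a log2 difference of 0.07 (SE 0.78, limma adjusted p = 0.983). These estimates have opposite signs and intervals of -1.84 to 0.90 and -1.64 to 1.79. Both untested probe sets of the gene, 229800_at and 230962_at, stayed at or under 9.80. For 229800_at every M5 array (0.25 to 3.62) lay below every SW480 array (3.75 to 9.80), with a gap of less than the pseudocount between the groups.

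ALDH1A1, OLFM4 and MSI1 lay wholly under the low-signal limit and had no test. ALDH1A1, the enzyme most tied to the ALDEFLUOR assay, gave 7.42, 0.467 and 0.333 in SW480 and 23.5, 0.25 and 3.38 in M5. OLFM4 gave 12.2, 0.70 and 0.25 in SW480 and 5.30, 0.333 and 0.25 in M5. MSI1 gave 4.48, 0.80 and 1.02 in SW480 and 8.78, 0.633 and 0.617 in M5. For these 3 genes the dimmer arrays held the highest pair of normalised signals, whatever the population. The deposited signals, before normalisation, had the dimmer arrays highest too for OLFM4 (6.8 and 3.4 against at most 0.6) and for MSI1 (2.6 and 5.8 against at most 1.2). For ALDH1A1 M5 replicate 1 was highest at 13.7, and SW480 replicate 1 and M5 replicate 3 both read 4.3. The files used here hold no detection calls, so these levels cannot be set apart from background, and absence of the transcripts is not shown. When all probe sets were tested with no filter, the 6 left-out member probe sets had limma adjusted p of 0.683 to 0.977.

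BMI1 could not be described. The probe set that carries its symbol also carries that of a read-through transcript with the neighbouring gene COMMD3, so it did not meet the rule and no value is given.

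**Figure D3:**
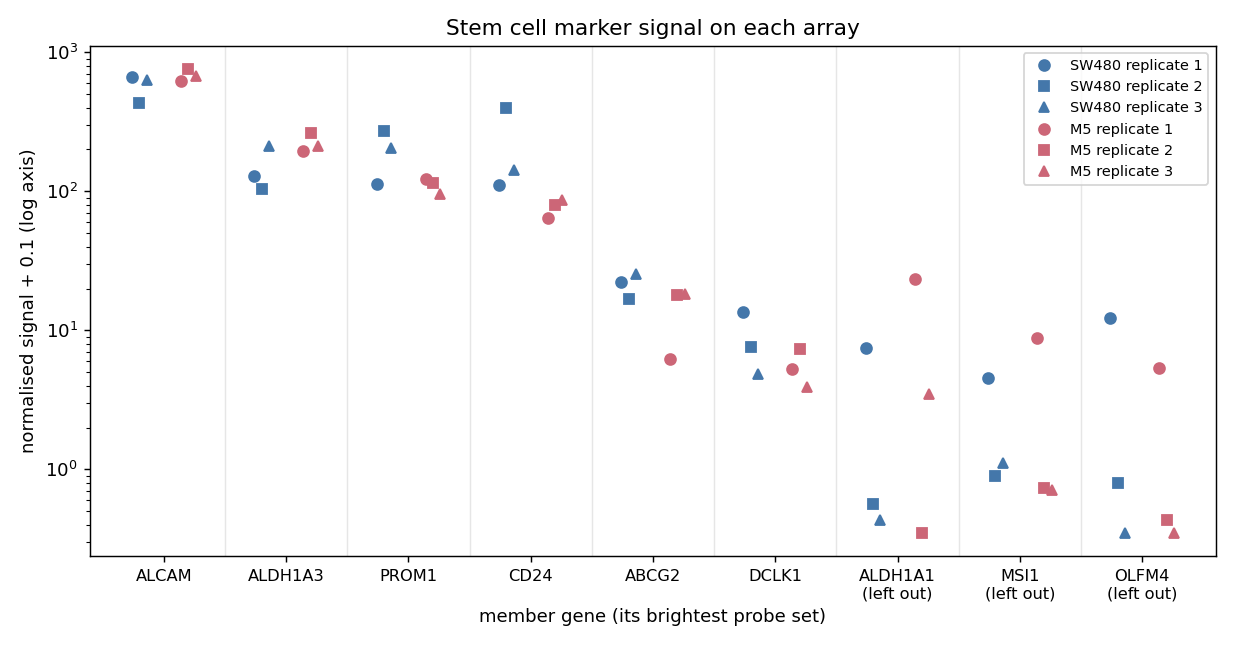
Normalised signal (vertical log axis, with 0.1 added) of the brightest probe set of each of the 9 measured genes on the 3 SW480 (blue) and 3 M5 (red) arrays. CD24 is the gene among these whose groups do not overlap, and ALDH1A1, MSI1 and OLFM4, left out of the test, are highest on the dimmer arrays (circles). Heights of different genes are not comparable.

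Other genes linked to these markers were read from 9 lists, by the brightest tested probe set of each gene and with p-values adjusted over all probe sets. Of 130 tested genes in these lists 0 passed the threshold in limma, and at an unadjusted p under 0.05 limma gave 10 higher and 9 lower. Over all 14243 genes, 8 were higher and 6 lower on this reading, or 773 and 871 at the unadjusted level, with a median log2 difference of -0.01. Of the other surface markers of tumour-initiating cells, 10 of 15 had values above 0 and the median was 0.24. At an unadjusted p under 0.05 limma gave 2 of these 15 higher and 0 lower. CD44, the hyaluronan receptor, gave 1768, 2168 and 2363 in SW480 and 2120.3, 1403 and 1504 in M5, a log2 difference of -0.34 (SE 0.19, limma adjusted p = 0.566). EPCAM, an epithelial adhesion protein, differed by 0.07 (SE 0.15) and the integrin chain ITGB1 by -0.02 (SE 0.14), with limma adjusted p of 0.907 and 0.981. The groups overlapped for all 3.

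Genes of crypt base stem cells had a median log2 difference of -0.14 over 19 tested genes, 14 of them below 0. LGR5, the R-spondin receptor that defines these cells, was under the low-signal limit, with 9.62, 1.93 and 4.27 in SW480 and 5.03, 9.65 and 1.28 in M5. PTPRO, a receptor phosphatase, and SOX9, a crypt transcription factor, were the brightest of the list. They had log2 differences of -0.34 (SE 0.24) and -0.47 (SE 0.37), with limma adjusted p of 0.667 and 0.703. Colonocyte differentiation genes had a median of -0.56 over 12 tested genes, 11 of them below 0. The median of that list was -1.30 on the dimmer arrays and -0.27 on the brighter ones. CA2, a carbonic anhydrase, and KLF5, a transcription factor, were its brightest genes, with log2 differences of -0.003 (SE 0.23) and -0.22 (SE 0.41) and limma adjusted p of 0.997 and 0.891.

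The other aldehyde dehydrogenases had a median of -0.07 over 15 genes. ALDH1B1, a mitochondrial enzyme used as a colon cancer marker, differed by -0.05 (SE 0.30, limma adjusted p = 0.974). ALDH3A2, which clears fatty aldehydes, differed by -0.07 (SE 0.25, limma adjusted p = 0.953), and ALDH18A1, of proline synthesis, by -0.70 (SE 0.27, limma adjusted p = 0.436). In the retinoid pathway the median was -0.06 over 16 genes, with values of 0.45 (SE 0.32) for the retinol dehydrogenase RDH11 and -0.02 (SE 0.28) for the retinoic acid carrier CRABP2. Their limma adjusted p were 0.67 and 0.987. ABC drug transporters had a median of -0.04 over 10 genes, with -0.31 (SE 0.23) for ABCC1 and 0.02 (SE 0.30) for ABCC4, both exporters of conjugated drugs (limma adjusted p of 0.681 and 0.988).

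Polycomb partners of BMI1 had a median of -0.14 over 17 genes. SUZ12, a core subunit of the methylating Polycomb complex, gave 455, 513 and 518 in SW480 and 380.3, 271 and 264 in M5, with no overlap. Its log2 difference was -0.71 (SE 0.20, limma adjusted p = 0.315). PHC2 differed by -0.11 (SE 0.22, limma adjusted p = 0.904). CDKN2A, the cell cycle inhibitor gene that BMI1 represses, had a log2 difference of 0.49 (SE 0.23, limma adjusted p = 0.499). In the Notch list the median was -0.08 over 22 genes, with -0.23 (SE 0.21) for the protease ADAM10 and -0.05 (SE 0.22) for the transcription factor RBPJ, at limma adjusted p of 0.752 and 0.958. NUMB, whose translation MSI1 represses, had signals of 0.967 to 10.6 and a log2 difference of -0.40 (SE 0.73, limma adjusted p = 0.889). Only 4 of 9 pluripotency factors on the array were tested. The brightest were MYC, at -0.49 (SE 0.22, limma adjusted p = 0.475), and KLF4, at 0.59 (SE 0.51, limma adjusted p = 0.735).

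**Figure D4:**
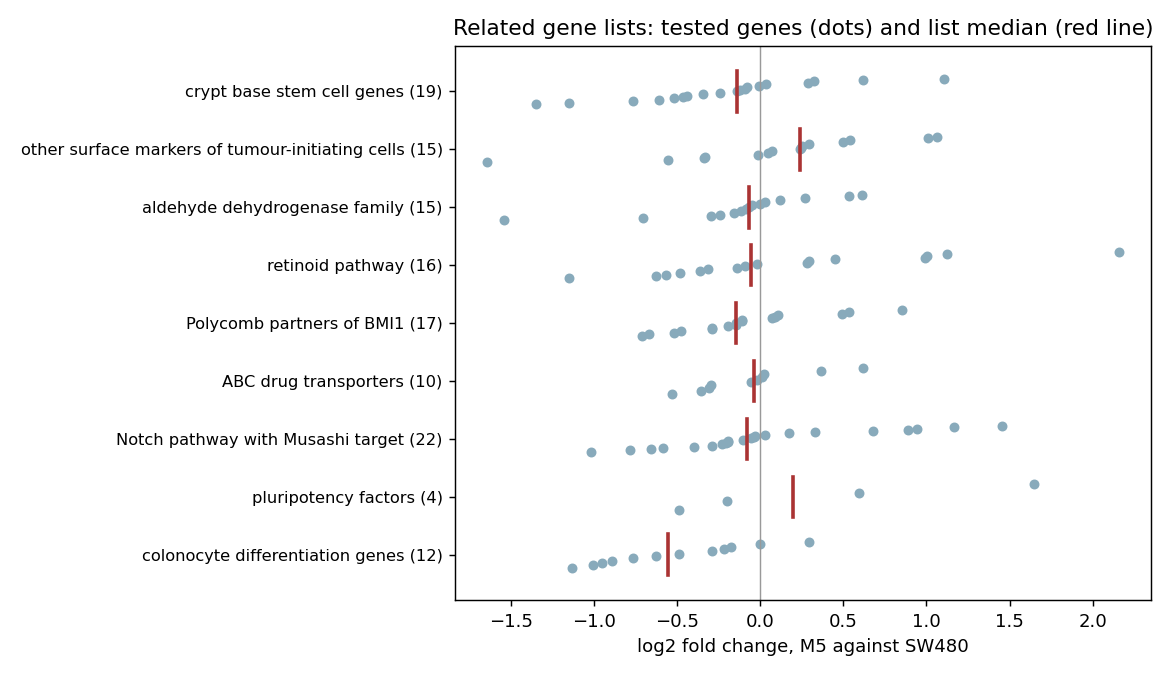
Log2 fold change of M5 against SW480 (horizontal axis) for the tested genes of 9 related lists, 1 dot per gene, with the number of genes in brackets and the median as a red line. Medians lie between -0.56 for colonocyte differentiation genes and 0.24 for other surface markers, and no gene passed the threshold.

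Markers of other cell types were read in the same way. None of the 7 lists beside epithelium (fibroblast, endothelial cell, leukocyte, erythroid cell, hepatocyte, neural cell and tuft cell) had a gene past the threshold in limma, and at an unadjusted p under 0.05 it gave 4 genes higher and 1 lower of 37 tested. For tuft cells, which DCLK1 marks in normal gut, 3 of 8 genes were tested, and the summed signal of the list was 62.3 to 103.7 on SW480 and 78.1 to 95.5 on M5 arrays. The summed leukocyte signal, of interest because CD24 is also a leukocyte antigen, was 53.5 to 128.6 on SW480 and 102.2 to 213.4 on M5 arrays, with 5 of 9 genes on the array tested. On M5 the largest share was lysozyme (LYZ), at 63.9 to 161.4, while the pan-leukocyte gene PTPRC read 1.80 to 11.3 on SW480 and 1.35 to 5.45 on M5 arrays. The median log2 difference of the leukocyte list was 0.62 over its 5 tested genes, 4 of them above 0 and 1 below. It was -0.51 on the dimmer arrays and 1.56 on the brighter ones. The part of such cells in the marker signals was not tested.

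The genes whose signals followed a member most closely over the 6 arrays were found among 13224 other genes. For CD24 these were MED1 (r = 0.99), a subunit of the Mediator complex, and AIF1L (r = 0.98), and MED1 gave 215, 367 and 228 in SW480 and 153, 168 and 172 in M5. PROM1 was followed by WAPL and CCT2, ALCAM by PSMA5 and UBXN1, and ALDH1A3 by SMIM5 and TMEM131L, with r between 0.991 and 0.997. With 6 arrays and so many genes, such values are a description of these arrays.

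Neighbours on the chromosome were looked up after the values were seen, as the 5 nearest tested protein-coding genes on either side by RefSeq order. Around CD24, 7 of 10 had log2 differences below 0, with a median of -0.28 and a range of -1.93 to 0.31. The lowest was SOBP, whose groups did not overlap (limma adjusted p = 0.211). Around PROM1 the median was -0.11 (6 of 10 below 0) and around ALDH1A3 -0.01 (5 of 10). None of these 30 neighbours passed the threshold.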

How the data were processed

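Signals of 54675 probe sets on 6 arrays were used, 3 of SW480 and 3 of M5, grouped by sample title. The authors deposited linear probe set intensities, and the submitters' processing notes name GCOS 1.4. For its settings, scaling target and build, nothing is stated in the sources used here. Leaving out 62 control probe sets, the arrays were quantile normalised, because their 2% trimmed means differed by 4.13 times, over a tolerance of 5%. Signals were tested as log2(signal + 1.7), where 1.7 is their 20th percentile over the deposited table, so differences of low signals are understated. A filter removed the dimmest 40% by mean over all arrays. The fit was limma 3.58.1 in R 4.3.3 (lmFit and eBayes with an intensity trend, two-sided), adjusted by Benjamini-Hochberg at 0.05. The script was tested on simulated data whose arrays had equal brightness and independent noise. That test thus did not cover the differences in brightness or the likeness of M5 replicates 2 and 3.

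Symbols come from the 2016 platform annotation, with 41091 probe sets of 1 symbol. The rule for named genes took all members. From each list it took genes past the threshold and the brightest pair, and in any case CD44, LGR5, EPCAM, NUMB, CDKN2A and ALDH1B1. For likeness it took the 2 closest genes of each member above the median signal. The members and lists were chosen with earlier results of these data known. Of 257 list symbols, 18 found no probe set of their own. Promoter sequences were matched by symbol for 8 of the 9 measured members. Figures were drawn with matplotlib 3.10.9. Precision is limited by the number of arrays. The alternatives numbered 21, and they changed the scaling, pseudocount, filter, variance model, block, array weights, arrays used or probe set per gene.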

Additional observations from a re-analysis of the deposited data

How the results depend on the processing

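No member probe set was called higher in M5 under any of the 21 alternatives, and 0 were called lower in all but 3. Without the 2 dimmest arrays 2 were lower (CD24 209771_x_at and PROM1), where 4.21% of all probe sets were. With array weights 4 were lower (3.26% of all), and dropping single arrays gave 0 to 1, the 1 without SW480 replicate 1 (0.168% of all). Averaging M5 replicates 2 and 3 as well, a setting added after the values had been seen, gave 0 lower; it takes the single M5 sample to vary as SW480 does. Of the 14 tested probe sets, 13 kept their sign in every alternative that tested them. DCLK1 215303_at, at 0.07, turned to -0.18 with array weights and ran from -0.54 (without SW480 replicate 2) to 0.58 with single arrays dropped, and the cause was not tested. The replicate numbers gave no clear pairing: deviations of equal numbers correlated at 0.11, 0.02 and 0.07, and the replicate block gave 0 higher and 0 lower. Signals near the pseudocount set no firm fold.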
